A study of Mus musculus with 12 samples.

Results

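Wnt inhibition of corpus organoids was measured by RNA-seq in 6 of the 12 libraries of the study, chosen by their sample labels: 3 corpus libraries labelled as Wnt inhibited and 3 corpus vehicle libraries whose treatment label reads none. Organoids are 3-dimensional cultures, here grown in Matrigel from glands of wild-type mice, and the corpus is the body of the stomach, the acid-secreting region. Each group held the independent lines 8025, 8026 and 8028, all wild type and passaged several times, so that each inhibited library had a vehicle library of the same line. On day 4 after a passage the inhibited cultures received XAV939, which blocks the tankyrases and so stabilizes the AXIN scaffold that destroys beta-catenin (1 mM as labelled), lost the added Wnt and R-spondin, and were given Noggin-1 (100 ng/mL), an antagonist of bone morphogenetic proteins. Vehicle cultures received DMSO and stayed in growth medium with 50% L-WRN, a conditioned medium that carries Wnt, R-spondin and Noggin, and 20% serum. The serum content of the inhibited medium was not stated in the labels. RNA was taken after 24 h. The labels call the cells corpus epithelial cells. The response to the compound cannot be told apart from the response to the change of medium, and no stroma, immune cells or vessels of the living stomach were part of the model. The other 6 libraries are antral organoids under the same treatments, in growth medium with 10% serum. They entered the fit to share its estimate of spread and served for 1 comparison of the responses.

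In canonical Wnt signalling a secreted WNT ligand binds a Frizzled receptor and an LRP5 or LRP6 co-receptor, the destruction complex of AXIN, APC, GSK3 and casein kinase stops marking beta-catenin for breakdown, and beta-catenin joins TCF factors at target genes. R-spondins strengthen the signal through LGR receptors by removing ZNRF3 and RNF43, ubiquitin ligases that take Frizzled receptors off the membrane. In the stomach the pathway is known for supporting stem and deep gland cells, while the short-lived surface pit cells that secrete MUC5AC lie farthest from its source.

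The corpus libraries held 24434807 to 31656696 counts over 55421 genes, of which 16152 were tested. A count of 3, the most a reading of 0 allows, equals 0.0889 to 0.128 CPM (counts scaled to library size), and such limits cover counting error only. Epithelial markers were high in every corpus library (Epcam 322 to 539 CPM, Cdh1 877 to 1074), and Col1a2, Dcn and Cd3e, which mark fibroblasts and T cells, stayed at or below 0.178 CPM. The defining genes of acid-secreting parietal cells were nearly absent: Atp4b had 1 count in all 6 corpus libraries and Atp4a reached 1.56 CPM. Lipf, a gastric lipase of chief cells, had 0 counts. Line 8028 stood apart. In a principal component analysis of the 6 libraries the first component (70.7% of the variance) held vehicle libraries at -29.2 to -24.1, inhibited lines 8025 and 8026 at 37.0 and 31.2, and inhibited line 8028 at 12. This line also read less like corpus in its regional markers: the antral factor Nkx6-3 stood at 48.7 and 82.5 CPM in its vehicle and inhibited libraries against 0.247 to 3.08 in the other 4, and Irx5, near 0 in antral libraries, at 2.13 and 2.56 against 10.7 to 13.7. Called changes that leaving out this line moved by over 1.5 times are given with and without it where their log2 value is printed.

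Wnt inhibition changed a large part of the corpus transcriptome. With the line as a block, edgeR's quasi-likelihood test called 7022 genes of 16152 (43.5%) at a Benjamini-Hochberg adjusted p below 0.05, 3201 higher (19.8% of those tested) and 3821 lower (23.7%). Most of these changes were small: the median log2 change was 0.47 among genes called higher and -0.58 among genes called lower, and 573 genes (3.55%) rose and 971 (6.01%) fell by at least 2-fold. At the 8-fold level 57 genes (0.353%) rose and 103 (0.638%) fell. The 3 inhibited libraries lay above all 3 vehicle libraries for 3190 genes (19.7%) and below them for 3404 (21.1%). Without the block the calls were 2498 higher and 2487 lower, and without both libraries of line 8028 they were 3509 and 3842. Scaling by total counts alone shifted the median of all genes by -0.16 on the log2 scale, and the share of calls that were higher went from 45.6% to 24.2%. When line 8026 was left out 4272 genes were called.

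Rises and falls differed in the kind of gene they touched. Among the 2114 tested genes with a mean over 100 CPM, 945 were higher and 363 lower, whereas among the 2592 genes under 1 CPM 149 were higher and 355 lower. Genes called higher held 33.6%, 33.1% and 32.2% of the CPM in vehicle lines 8025, 8026 and 8028, and 46.1%, 45.0% and 40.2% in the inhibited libraries of the same lines. Genes called lower went from 21%, 21.1% and 21.6% to 12.8%, 13.2% and 15.9%. These shares are a description, since the genes were selected by the same libraries, and the shift was smallest in line 8028. The balance of higher and lower calls depended on the scaling (1779 higher and 5567 lower with total counts), and the classes used the mean of all 6 libraries. By annotation, 49.8% of 12976 protein-coding genes, 29.3% of 358 lincRNAs and 11.3% of 1463 processed pseudogenes passed the test.

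**Figure D1:**
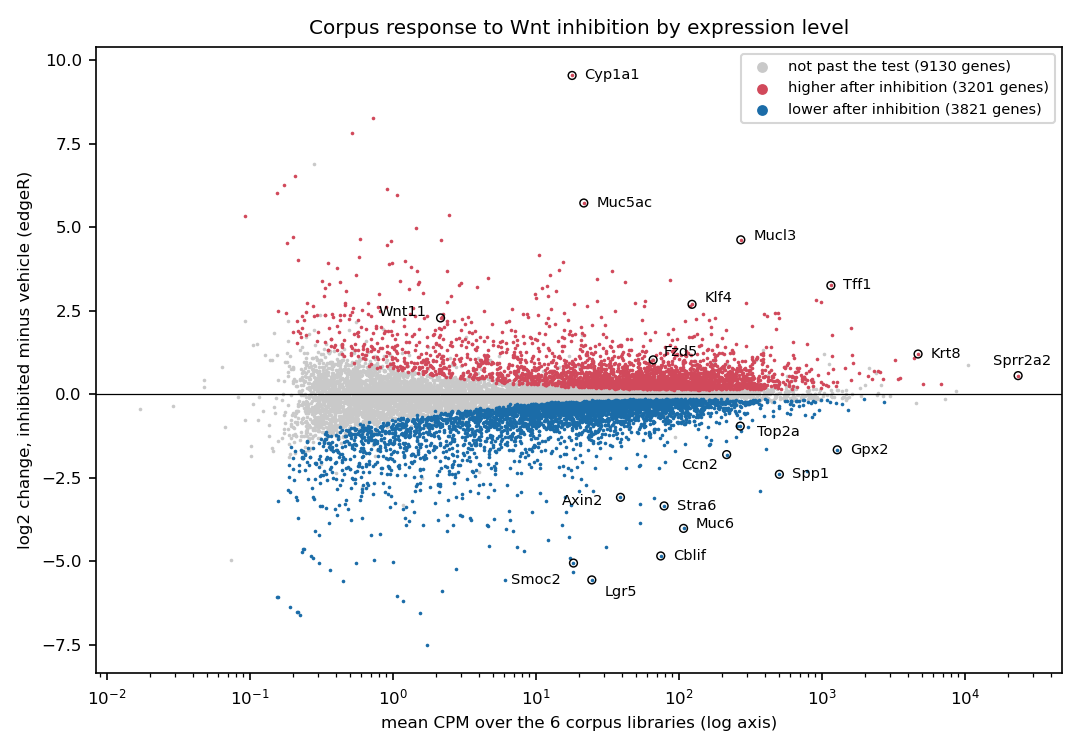
Log2 change of each tested gene (vertical axis, inhibited minus vehicle, from edgeR) against its mean CPM over the 6 corpus libraries (horizontal, log axis), with the 3201 genes higher and 3821 lower after inhibition coloured. The named genes are circled, and among genes over 100 CPM the points above 0 outnumber those below, 945 called higher against 363 called lower.

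Direct Wnt targets fell almost as a block. Of 19 tested feedback and target genes 17 fell and 0 rose, against 23.7% of all genes called lower, and the median log2 change of the list was -1.97 beside -0.04 for all tested genes. The exceptions were Kremen1 (0.14) and Nkd2 (-0.88), which did not pass, and Lef1, Wif1, Dkk1, Dkk2 and Dkk3 were below the count filter. The stem cell list shares genes with these targets and does not stand apart from them. In bulk RNA fewer cells of a type cannot be told apart from less RNA per cell. Sp5, a transcriptional repressor that Wnt signalling induces, was 43.3, 37.9 and 25.7 CPM in vehicle lines 8025, 8026 and 8028 and 3.83, 4.32 and 5.94 after inhibition. The groups of Sp5 did not overlap, and its fitted log2 change was -2.89 ± 0.233 (SE; edgeR adjusted p 7.97e-05). The ubiquitin ligase genes fell as well, Rnf43 by 1.54 and Znrf3 by 1.31 on the log2 scale. So did Tcf7, which encodes a beta-catenin partner (-2.27), and Notum, an enzyme that inactivates WNT proteins (-1.97).

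The promoter of Sp5 is shown because it carries a TCF motif close to the start. The searched letters CTTTGAT were found on either strand in 2 of the 12 target genes with an entry in the RefSeq promoter table (Sp5 and Tnfrsf19, 16.7%), against 4.29% of all 27025 genes in the table and 3.73% of its 32851 promoters, each of the same 300 bases, 250 before and 50 after the annotated start. The motif shares its letters TTTGA with a cell cycle motif given further on. A match is a description of these letters only, and the window holds no distal enhancers. Capitals mark the match, which begins 104 bases before the start, on the plus strand of GRCm38.p6 at chr2:70474673-70474972.
Sp5: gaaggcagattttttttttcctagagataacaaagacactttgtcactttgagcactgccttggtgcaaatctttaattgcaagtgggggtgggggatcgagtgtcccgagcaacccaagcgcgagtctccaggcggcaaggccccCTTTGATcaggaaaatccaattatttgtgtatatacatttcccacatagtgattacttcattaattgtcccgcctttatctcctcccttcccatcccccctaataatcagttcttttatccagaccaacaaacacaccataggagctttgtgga

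Genes of the pathway itself moved in both directions. Among 10 tested ligand genes Wnt11 and Wnt4 rose, and Wnt10a, Wnt6, Wnt5a, Wnt5b and Wnt9a fell. Wnt10a, a canonical ligand of epithelia, was 13.6, 19.5 and 13.5 CPM in the vehicle lines and 2.27, 5.31 and 3.95 after inhibition (log2 change -2.04 ± 0.158, adjusted p 1.06e-05). Wnt11, better known for signalling without beta-catenin, went from 0.859, 0.67 and 0.599 CPM to 5.11, 3.77 and 1.92 (2.28 ± 0.28, adjusted p 0.000146). Neither gene's groups overlapped. Wnt7a and Wnt7b, at vehicle means of 17.1 and 17 CPM, did not pass (-0.27 and 0.00). The Wnt5a and Wnt9a calls were lost without the block (adjusted p 0.244 and 0.164) and without line 8028 (0.109 and 0.162). Those of Wnt5a, Wnt5b and Wnt9a were lost without line 8026 (0.211, 0.0501 and 0.0937), and that of Wnt9a also without line 8025 (0.105). The R-spondin genes and 9 of the listed WNT genes were below the filter.

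Of 18 genes for receptors and ligand secretion 4 rose (Fzd5, Lgr4, Porcn and Kremen2) and 6 fell (Fzd2, Fzd9, Ror2, Fzd3, Wls and Ryk), shares near those of all genes (19.8% higher and 23.7% lower). Fzd5 was 50.9, 42.8 and 37.3 CPM in vehicle and 91.6, 90.0 and 83.5 after inhibition (1.03 ± 0.073, adjusted p 5.82e-06), and Fzd2 fell from 9.51, 7.27 and 8.22 to 1.48, 1.46 and 2.67 CPM (-2.16 ± 0.233, adjusted p 8.99e-05). The R-spondin receptor Lgr4 rose by 0.62 while its relative Lgr5 fell by 5.56 on the log2 scale. Lgr5 went from 51.1, 51.1 and 42.4 CPM to 0.206, 1.03 and 1.77, so its highest inhibited value was again that of line 8028, and without that line the log2 change was -6.36. Ror2, a co-receptor for non-canonical ligands, fell by 1.65. Porcn and Wls, which attach the lipid to WNT proteins and carry them to the surface, moved apart (0.56 and -0.45). The co-receptors Lrp5 and Lrp6 did not pass (0.14 and 0.01). Kremen2, Porcn and Ryk lost their call without the block (adjusted p 0.0506, 0.0708 and 0.0787), and Kremen2 and Ryk without line 8025 (0.117 and 0.132) or line 8026 (0.0794 and 0.11).

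The destruction complex and its partners changed little. Of 26 tested genes 6 rose and 4 fell, with log2 changes from -0.69 to 0.61, shares that are again near those of all genes. Tnks, the gene of a tankyrase that XAV939 inhibits, was 101, 96.3 and 94.2 CPM in vehicle and 92.7, 98.6 and 85.7 after inhibition and did not pass (-0.08, adjusted p 0.308; 0.0372 with total counts). Its paralog Tnks2 fell by 0.25 and the beta-catenin gene Ctnnb1 rose by 0.25 on the log2 scale, calls lost without line 8026 (adjusted p 0.0515 and 0.0548), and for Ctnnb1 also with total counts (0.476). The largest members were Amer1, an APC-binding scaffold (-0.69), Tcf7l2, the main intestinal TCF factor (0.61), and Tle2, a co-repressor (0.60; adjusted p 0.118 without the block). Apc and Gsk3b stood at 0.05 and 0.10 and did not pass. With total counts 2 members rose and 7 fell, and without line 8026 1 rose. These values are messenger levels, and protein stability, on which XAV939 acts, was not measured.

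**Figure D2:**
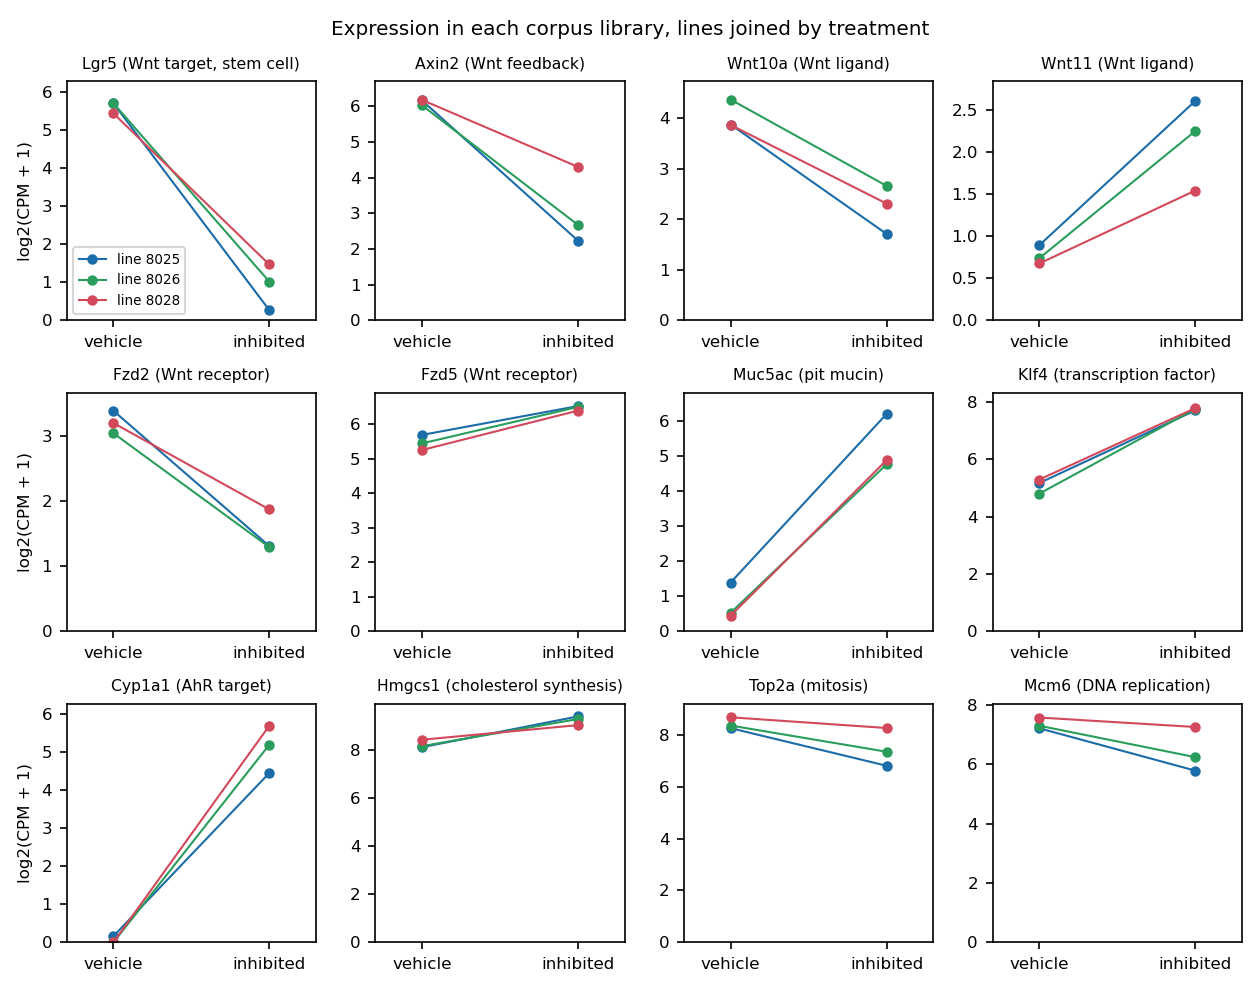
Expression of 12 genes as log2(CPM + 1) on the vertical axis in vehicle and inhibited corpus libraries, each line joining the libraries of 1 organoid line. Lgr5, Axin2, Wnt10a and Fzd2 fall and Wnt11, Fzd5, Muc5ac, Klf4 and Cyp1a1 rise in all 3 lines, whereas Top2a and Mcm6 fall steeply in lines 8025 and 8026 and little in line 8028.

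Along the gland, genes of the deep compartments fell and genes of the surface rose. Of 18 stem and isthmus progenitor genes 13 fell and 1, Runx1, rose (0.24; adjusted p 0.0903 without the block, 0.184 without line 8026 and 0.559 with total counts). Smoc2, which encodes a matrix protein of Lgr5 cells, went from 23.1, 31.0 and 52.4 CPM to 0.206, 0.385 and 2.82. Sox9 and Ascl2, transcription factors of gland base stem cells, changed by -2.22 and -2.73 (-3.50 for Ascl2 without line 8028). All 15 tested pit cell genes rose (14 without line 8025), with a median of 2.21, where 19.8% of all genes were called higher. Muc5ac, the surface mucin, was 1.63, 0.446 and 0.366 CPM in vehicle and 72.6, 26.2 and 28.5 after inhibition (5.72 ± 0.26, adjusted p 4.89e-06). Mucl3, a mucin-like gene, reached 564, 536 and 459 CPM from 33.5, 15.7 and 17.1. Gkn2, a gastrokine, also rose (3.68), a call lost without line 8025 (adjusted p 0.0637).

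Mucous neck and deep gland genes went down as a group, 7 of 8, with Tff2 as the exception. Tff2, the trefoil peptide of neck cells, rose from 131, 149 and 238 CPM to 715, 642 and 1131 (2.27 ± 0.0949). Muc6, the mucin of the same cells, fell from 238, 233 and 138 to 7.83, 15.2 and 14 (-4.02 ± 0.328), and A4gnt, the enzyme that caps the glycans of gland mucin, fell by 4.27 on the log2 scale. Thus 2 secreted products that usually mark the same cell moved in opposite directions, in all 3 lines. Of 7 chief cell genes 5 fell and 1, Rab3d, rose (0.39). Cblif, gastric intrinsic factor, fell from 192, 173 and 68.9 CPM to 4.66, 4.49 and 4.74, and Pgc, pepsinogen C, by 3.10. The factors that drive chief cell secretion moved less, Bhlha15 at 0.02 (not passing) and Xbp1 at -0.28 (adjusted p 0.0625 without the block). Without the block 3 of the 7 chief cell genes fell, Clps being the other call lost (0.0531; 0.0575 without line 8025).

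Of 8 tested parietal cell genes 6 fell and 2 rose. Chrm3, the acetylcholine receptor of acid secretion, fell by 2.08 and Kcnj15, a potassium channel, by 1.47 on the log2 scale. Slc26a9 and Slc4a2, chloride and bicarbonate transporters that other gastric cells also use, were the 2 that rose (0.53 and 0.45). Atp4a, a proton pump subunit of parietal cells, was among those that fell, from 1.39, 1.56 and 0.799 CPM to 0.453, 0.514 and 0.188, while Atp4b was nearly absent. The tuft cell gene Dclk1 fell by 3.61 and Trpm5 by 0.87 (adjusted p 0.071 without the block), while Avil rose by 1.02. Tuft markers were low throughout: Dclk1 was 2.52, 6.47 and 7.46 CPM in vehicle and Trpm5 at most 2.13. Pou2f3 had 16 counts in all 6 corpus libraries. Of 4 tested endocrine genes Insm1 fell (-1.46), and Chga stayed between 0.043 and 0.414 CPM.

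Some genes of neighbouring epithelia rose, where 19.8% of all genes were called higher (15.5% without the block). Of 12 intestinal genes 7 rose and 1, Slc5a1, fell, and Clca1, a goblet cell product, went from 1.13, 1.69 and 2.63 CPM to 20.1, 16.4 and 50.8. The intestinal master factor Cdx2 rose from 10.9, 8.80 and 23.8 to 17.6, 19.7 and 44.9 CPM (0.92 ± 0.103), with overlapping groups because line 8028 started highest. Without the block 3 of the 12 rose, and Cdx2 was not among them (adjusted p 0.105). Of 12 squamous genes 8 rose (4 without the block, 5 without line 8026), among them Krt13 (2.15), Sprr1a (2.03) and Ivl (1.84), which builds the cornified envelope, while the squamous basal factor Trp63 had at most 4 counts in a library. Of 16 epithelial identity genes 11 rose. The inhibited libraries lay above all vehicle libraries for 3 intestinal, 5 squamous and 10 identity genes, and for 19.7% of all genes. Krt8 and Krt19, keratins of simple epithelia, rose by 1.20 and 1.09 and were among the 5 largest gains in CPM. Epcam fell by 0.49, from 526, 508 and 539 CPM to 322, 329 and 486, and the tight junction gene Cldn4 by 0.96.

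Transcription factors of epithelial maturation and the enzymes that decorate mucins rose in part. Klf4 (chromosome 4, 55527143 to 55532466 on GRCm38), a zinc finger factor of surface and barrier cells, was 35.0, 26.9 and 38.2 CPM in vehicle and 207, 215 and 219 after inhibition. Its log2 change of 2.69 ± 0.094 (adjusted p 1.81e-07) was the largest among 17 factors of the Kruppel-like, Elf and Grhl families, of which 10 rose and 2, Klf15 and Ehf, fell. Of 23 O-glycan enzymes 14 rose and 3, A4gnt, Fut9 and Galnt1, fell. Gcnt3, which builds branched mucin cores, rose from 205, 202 and 265 to 639, 594 and 535 CPM. Fucosyltransferases moved apart: Fut4 rose by 1.87 and its relative Fut9 fell by 2.46.

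Other signalling pathways of the gland also moved. Id3, a BMP target, fell from 35.6, 39.0 and 35.4 to 13.8, 12.3 and 13.4 CPM (-1.48 ± 0.0988), while Bmp2 rose by 1.14, a call lost without line 8025 (adjusted p 0.0708). In the BMP list 8 of 16 fell and 1 rose, or 5 and 1 without the block. The inhibited medium contained added Noggin-1 and the vehicle medium Noggin from L-WRN, at levels not compared here. Of 14 Notch genes 4 rose and 6 fell (19.8% and 23.7% of all genes), or 2 and 3 without the block (15.5% and 15.4% of all genes). Those that fell included Lfng, a Notch-modifying glycosyltransferase (-1.31), and Hes6, from 70.9, 73.3 and 69.6 CPM to 39.1, 37.2 and 31.4. The 4 that rose (Dll4, Nrarp, Hes1 and Notch2) did so by 0.21 to 0.42, and 0 of the list rose with total counts or without line 8026.

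Over all genes 19.8% were called higher and 23.7% lower (15.5% and 15.4% without the block). Of 22 EGF family and feedback genes 12 rose and 4 fell, the share that fell being no larger than that of all genes. The risers included ligands and receptors, and the genes that fell were Etv5, Etv4, Egf and Spred1. The ligand gene Ereg went from 15.4, 10.5 and 9.25 CPM to 27.9, 34.2 and 35.2 (1.49 ± 0.186), Areg rose by 1.20 and the receptors Erbb2 and Egfr by 0.75 and 0.38 (Egfr adjusted p 0.0582 with total counts). Etv5, a factor that reports receptor tyrosine kinase signalling in many tissues, fell from 45.3, 59.2 and 50.9 to 10.9, 13.5 and 17.1 CPM (-1.91 ± 0.132) and Etv4 by 0.95. The Egf and Spred1 calls were lost under several settings, including the fit without line 8028 (adjusted p 0.101 and 0.0577). Among 18 YAP target and regenerative genes 11 fell (6 without the block, also 6 without line 8026) and 3, Anxa3, Ajuba and Clu, rose. The share of this list that rose was no larger than that of all genes. Ccn2 and Ccn1, the most used readouts of YAP, changed by -1.81 and -1.37. Of 13 immediate early genes 9 rose and 3 fell, but 3 and 3 without the block and 3 and 1 without line 8026. In the main fit the share of them that fell was no larger than that of all genes. Fos rose by 0.63 and Jun fell by 0.58.

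Cell cycle genes fell, and this was the clearest difference between the lines. Of 29 DNA replication and S phase genes 23 fell and 1 rose, and of 27 mitosis genes 21 fell and 0 rose, where 23.7% of all genes were called lower. Top2a, the topoisomerase of dividing cells, was 303, 325 and 406 CPM in vehicle and 111, 161 and 305 after inhibition (-0.96 ± 0.18, adjusted p 0.00561). Mcm6, part of the replicative helicase, went from 147, 156 and 189 to 54.1, 74.4 and 151 (-0.94 ± 0.194, adjusted p 0.00912). For both genes inhibited line 8028 stood at or above a vehicle value of another line, so the groups overlapped, while every line moved down. Within lines 8025, 8026 and 8028 the median log2(CPM + 1) change of the S phase list was -1.29, -0.77 and -0.12, and that of the mitosis list -1.10, -0.75 and -0.14. In line 8028 0 of the 29 S phase and 0 of the 27 mitosis genes fell by 0.5 or more, against 27 and 26 in line 8025 and 26 and 26 in line 8026. Line 8028 also changed less as a whole. Of the 11034 genes at 5 CPM or more, 514, 347 and 207 were at least 2-fold lower in lines 8025, 8026 and 8028. The part of this weaker response in the cell cycle values was not tested. Summed over the mitosis list, vehicle lines held 2424, 2592 and 3051 CPM and inhibited lines 1129, 1559 and 2784.

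The counts followed this spread. Without the block 1 S phase and 4 mitosis genes fell, no larger a share than the 15.4% of all genes, so both counts rest on the pairing by line. The numbers were 28 and 26 without line 8028, 11 and 13 without line 8025, and 2 and 5 without line 8026. Without a low-count filter they were 7 and 4. Top2a kept its call in these fits, whereas Mcm6 lost it without the block (adjusted p 0.0558), the filter (0.0633) or line 8026 (0.0548). The member that rose was E2f2, an E2F factor of S phase entry, from 2.37, 2.20 and 1.93 CPM to 4.33, 4.75 and 7.45 (1.31 ± 0.205), highest in line 8028. Upstream, of 13 D cyclin, CDK4/6 and CDK inhibitor genes 6 fell and 2 rose, against 23.7% and 19.8% of all genes. Cdk4 fell from 223, 221 and 250 to 109, 113 and 170 CPM (-0.85 ± 0.0847) and the inhibitor Cdkn2b rose by 0.90. Another inhibitor gene, Cdkn1c, fell, with log2 changes of -0.98 to -0.73 over the alternative settings. Ccnd1 stood at 688, 629 and 655 against 528, 488 and 669 CPM and lost its call without the block (adjusted p 0.116). Myc, a classical Wnt target, fell by 0.60 and its relatives Mycn and Mycl by 0.94 each. Line 8028 also kept more of its Wnt target RNA (Axin2 18.7 CPM against 3.71 and 5.39) and had 2.7% rRNA-like counts against 1.16% and 1.48%. The part of either in its small cell cycle change was not tested.

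The promoter of Top2a is shown because the mitosis list fell together in lines 8025 and 8026. The letters TTTGAA, the cell cycle homology region, occurred on either strand in 16 of the 21 mitosis genes with a promoter entry (76.2%), against 20.2% of all 27025 genes and 17.9% of promoters. In Top2a they begin 179 and 23 bases before the start, the second on the opposite strand. The window is the minus strand of GRCm38.p6 at chr11:99024140-99024439, and capitals mark the matches.
Top2a: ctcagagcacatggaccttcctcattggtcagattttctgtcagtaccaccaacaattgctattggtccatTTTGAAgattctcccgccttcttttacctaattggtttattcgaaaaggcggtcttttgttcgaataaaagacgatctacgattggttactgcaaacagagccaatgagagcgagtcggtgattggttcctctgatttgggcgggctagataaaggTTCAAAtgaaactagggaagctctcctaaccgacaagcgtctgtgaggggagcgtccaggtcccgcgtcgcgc

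Ribosome biogenesis genes showed the same line pattern at a smaller size. Of 32 ribosome biogenesis genes 19 fell and 1, the polymerase I and III subunit gene Polr1c, rose (0.44). Over all genes 23.7% were called lower. Without the block 3 of the list fell, a smaller share than the 15.4% of all genes. Without line 8026 3 fell, also a smaller share than that of all genes (2157 of 16345). The count was 26 without line 8028 and 8 without line 8025. Npm1, the nucleolar protein nucleophosmin, went from 985, 1008 and 1128 CPM to 529, 581 and 896 (-0.67 ± 0.0961, adjusted p 0.000447). The list medians were -0.69, -0.46 and -0.02 in lines 8025, 8026 and 8028. Of 87 ribosomal protein genes 20 fell and 0 rose, with small log2 changes such as -0.28 for Rpl22 and -0.26 for Rpl3, a share near the 23.7% of all genes called lower. Under other settings 0 fell without line 8026, 9 without line 8025, 11 without the block, 34 under upper quartile scaling and 66 under total counts.

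**Figure D3:**
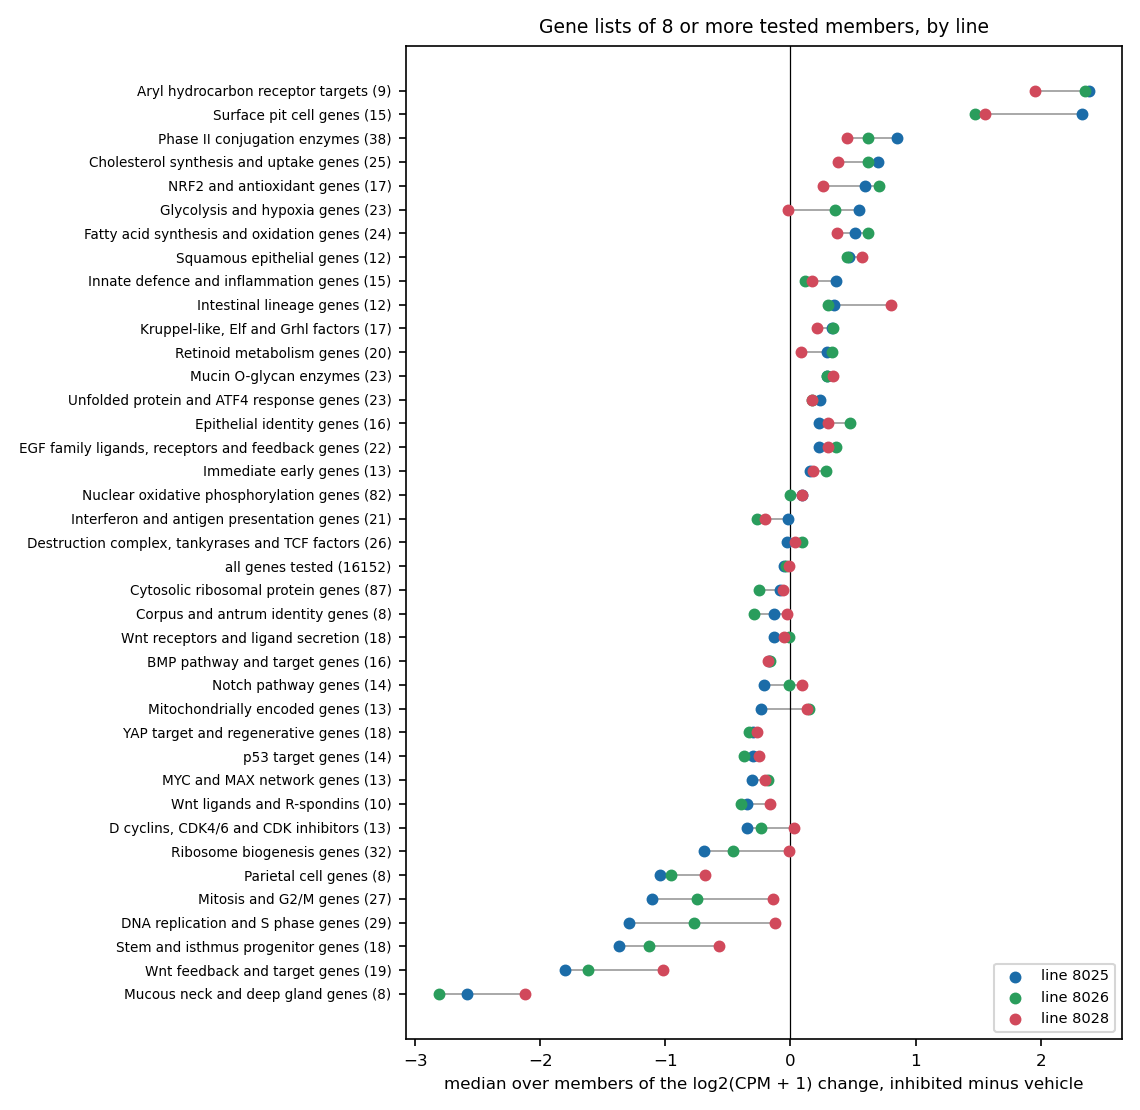
Median over the tested members of each gene list (number in brackets) of the log2(CPM + 1) change, inhibited minus vehicle, on the horizontal axis, with 1 point for each corpus line. Wnt target, neck and pit lists keep their sign in all 3 lines, while S phase, mitosis and ribosome biogenesis lists are near 0 in line 8028 (-0.12, -0.14 and -0.02).

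Over the 11034 genes at 5 CPM or more, the response of line 8028 was weaker as a whole. The SD of the log2 changes was 0.593, 0.567 and 0.453 in lines 8025, 8026 and 8028, and the genes at least 2-fold higher within the line numbered 340, 335 and 219. Those at least 2-fold lower numbered 514, 347 and 207. Regressed on the mean of the other 2 lines, the changes of line 8028 had a slope of 0.673, against 1.07 and 1.09 for lines 8025 and 8026. Across these genes, which are not replicates and share libraries' depth, the changes correlated with r = 0.928 between lines 8025 and 8026 and r = 0.794 and 0.880 between each of them and line 8028. The scaling was not uniform: Wnt target medians were -1.80, -1.62 and -1.02 and pit medians 2.33, 1.47 and 1.55. The widest gaps between lines among genes over 20 CPM were in Fst, which encodes the activin antagonist follistatin (27.4, 18.3 and 27.5 CPM to 7.01, 9.33 and 36.2), Aqp4, a water channel (34.8, 36.8 and 41.1 to 46.6, 27.1 and 13.6), Ppp1r1b, Cldn2, Axin2 and Kcne3. Fst and Aqp4 did not pass (adjusted p 0.295 and 0.419), and both went up in 1 line and down in the other 2. Ppp1r1b did not pass either (-1.28, adjusted p 0.0698), and passed without line 8028 (0.000151). Cldn2, a tight junction channel, fell (-1.69), a call lost without line 8025 or 8026 (adjusted p 0.103 and 0.125).

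**Figure D4:**
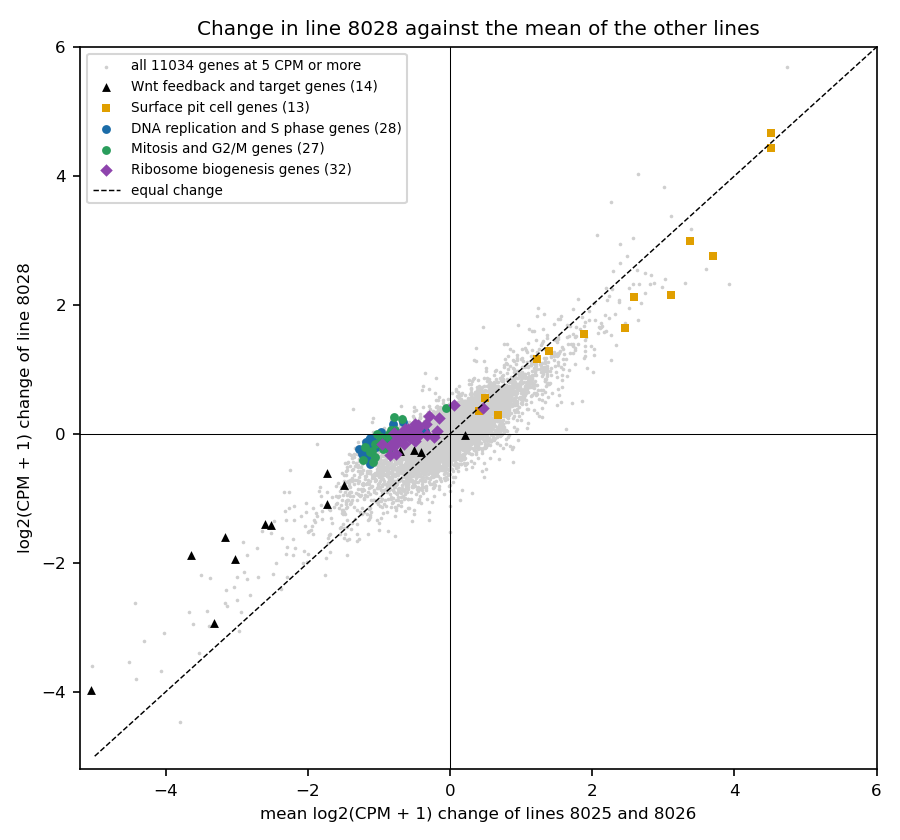
Log2(CPM + 1) change of line 8028 (vertical axis) against the mean change of lines 8025 and 8026 (horizontal) for the 11034 genes at 5 CPM or more, with 5 lists coloured and a dashed line of equal change. Pit genes lie near or below the dashed line, most Wnt targets above it but below 0, and cell cycle and ribosome biogenesis genes close to 0 on the vertical axis.

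Genes of foreign-compound metabolism rose. Of 9 tested genes of the aryl hydrocarbon receptor list 7 rose, and the receptor genes Ahr and Arnt did not pass (-0.15 and 0.11). Cyp1a1, a monooxygenase and the standard readout of the receptor, had 4 counts in vehicle, all in line 8025, and 20.9, 35.6 and 50.8 CPM in inhibited lines 8025, 8026 and 8028. Ahrr, the repressor that the receptor induces, went from 1.54, 2.23 and 1.86 to 12.9, 22.1 and 45.9 CPM (3.71 ± 0.261, adjusted p 3.59e-05). For both genes line 8028, the line with the smallest cell cycle changes, was the highest after inhibition, and the groups did not overlap. Nqo1, a quinone reductase shared with NRF2, was highest in line 8025 (848, 712 and 499 CPM, from 135, 136 and 128). Of 17 NRF2 and antioxidant genes 15 rose (10 with total counts), and of 38 conjugation enzymes 26 rose and 2, Gstm5 and Gstz1, fell. Gpx2, a glutathione peroxidase gene that the antioxidant list does not hold, fell by 1.67 on the log2 scale. Sult1b1, a sulfotransferase, went from 2.82, 2.87 and 2.56 to 26.0, 23.7 and 15.2 CPM (2.95 ± 0.175). Gsta1 and Ugt1a7c rose by 2.75 and 3.42 (4.10 for Ugt1a7c without line 8028). Reads of Gsta, Gstm and Ugt1a genes can be shared with near-identical or overlapping family members, so their split is uncertain.

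The promoters of Cyp1a1 and Ahrr are shown for the core of the receptor's motif, GCGTG, which was present on either strand in 5 of the 7 listed genes with an entry (71.4%), in 35.2% of all genes and in 32.4% of promoters. The longer form TNGCGTG, which contains the core, was present in 1 of 7, in 5.84% of all genes and in 5.07% of promoters. The core begins 54 bases before the start of Cyp1a1 (plus strand, chr9:57697363-57697662) and 107, 82 and 27 bases before that of Ahrr (minus strand, chr13:74292282-74292581), both from RefSeq on GRCm38.p6, with matches in capitals.
Cyp1a1: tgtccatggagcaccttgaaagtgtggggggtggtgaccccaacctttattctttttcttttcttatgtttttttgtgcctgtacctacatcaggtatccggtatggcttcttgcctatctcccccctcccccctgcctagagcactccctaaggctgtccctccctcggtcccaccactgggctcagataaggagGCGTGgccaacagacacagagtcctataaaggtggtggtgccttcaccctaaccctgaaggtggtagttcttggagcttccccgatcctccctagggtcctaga
Ahrr: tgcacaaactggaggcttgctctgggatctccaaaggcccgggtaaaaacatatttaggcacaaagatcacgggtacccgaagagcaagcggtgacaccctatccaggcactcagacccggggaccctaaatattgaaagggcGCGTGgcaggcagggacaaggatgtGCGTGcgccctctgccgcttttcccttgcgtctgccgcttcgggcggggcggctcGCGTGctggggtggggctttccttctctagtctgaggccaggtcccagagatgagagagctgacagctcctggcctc

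Genes of lipid synthesis rose together with genes of lipid use. Of 25 cholesterol genes 21 rose and 2 fell, and without the block 19 rose and 0 fell. Hmgcs1, the enzyme that makes HMG-CoA for the sterol pathway, was 279, 288 and 347 CPM in vehicle and 680, 630 and 529 after inhibition (1.01 ± 0.121, adjusted p 0.000324), with the smallest rise in line 8028. Lss, which closes the sterol ring, rose by 1.12 and Insig1, the sterol sensor partner, by 0.85. Of 24 fatty acid genes 18 rose and 1, Acaca, fell (-0.30; adjusted p 0.0819 without the block). The rises covered the desaturase gene Scd1 (0.68) and the oxidation gene Cpt1a (1.16), as well as Pparg (1.43), a nuclear receptor of lipid storage. These are messenger levels, and lipid flux was not measured. The sterol motif TCACNCCAC was found in 1 of 17 cholesterol genes with an entry (5.88%, Hmgcs1) against 1.44% of all genes and 1.24% of promoters. CCAAT, which often lies beside it, was found in 16 of 17 (94.1%), against 41.1% of genes and 37.4% of promoters. The promoter of Hmgcs1 is shown with its sterol motif in capitals, 137 bases before the start (plus strand, GRCm38.p6, chr13:119690101-119690400).
Hmgcs1: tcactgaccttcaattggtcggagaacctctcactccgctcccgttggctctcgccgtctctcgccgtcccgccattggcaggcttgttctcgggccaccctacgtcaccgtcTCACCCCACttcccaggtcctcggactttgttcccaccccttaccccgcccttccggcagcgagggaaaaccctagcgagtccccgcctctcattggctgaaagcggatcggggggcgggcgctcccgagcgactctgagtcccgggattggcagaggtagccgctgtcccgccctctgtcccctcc

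Stress and energy genes moved less. Of 23 unfolded protein and ATF4 response genes 11 rose (6 with total counts) and Xbp1 fell. Chac1, a glutathione-degrading enzyme that ATF4 induces, went from 17.8, 19.3 and 24.6 CPM to 72.4, 67.7 and 35.3 (1.46 ± 0.28), a call lost without line 8025 (adjusted p 0.0537). Of 23 glycolysis and hypoxia genes 10 rose and 0 fell, with list medians of 0.55, 0.35 and -0.02 in lines 8025, 8026 and 8028. Without line 8025 or 8026 6 rose. Hk1, a hexokinase, rose from 220, 239 and 216 to 486, 492 and 352 CPM. Of 82 nuclear genes of oxidative phosphorylation 12 rose and 2 fell, both shares below those of all genes (19.8% higher and 23.7% lower). The counts became 0 and 13 with total counts, where 1779 of all 16152 genes rose and 5567 fell. Without line 8026 they were 5 and 1, where 2115 of 16345 genes rose and 2157 fell. Of 20 retinoid metabolism genes 9 rose and 5 fell, the share that fell being near that of all genes. Rbp7, a retinol-binding protein gene, rose by 2.95 on the log2 scale. Stra6, the retinol uptake receptor, fell from 151, 158 and 121 to 13.8, 13.8 and 14.4 CPM.

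Defence genes were mixed. Over all genes 23.7% were called lower and 19.8% higher (15.4% and 15.5% without the block). Of 21 interferon and antigen presentation genes 9 fell and 4 rose (5 and 2 without the block, 5 and 1 without line 8026). The share of this list that rose was near that of all genes. Psmb9 and Tap1, which cut and transport peptides for MHC class I, fell by 1.31 and 0.95, whereas H2-D1, a class I heavy chain, rose by 0.48. Ifitm3, an antiviral membrane protein, fell from 19.6, 54.0 and 26.3 CPM to 0.907, 1.11 and 1.13 (-4.91 ± 0.222). Among 15 innate defence genes 8 rose and 3 fell, the share that fell being near that of all genes. Reg3g, an antibacterial lectin, and Pigr, the receptor that carries IgA through the epithelium, fell by 2.21 and 1.65. Duoxa2, which matures a surface peroxide-producing oxidase, rose from 46.8, 47.8 and 39.1 to 215, 154 and 80.1 CPM, a call lost without line 8025 or 8026 (adjusted p 0.0728 and 0.0593). Of 14 p53 targets 9 fell and 2, Cdkn1a and Btg2, rose, of which 0 rose without the block or without line 8026. Markers of immune cells stayed low, with Ptprc at 0.032 to 0.659 CPM, but Cd68, a lysosomal protein also made by epithelia, was 37.1, 38.5 and 28.2 in vehicle and 50.6, 35.7 and 14.9 CPM after inhibition and did not pass.

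Outside these lists, the largest rises at 5 CPM or more included Aqp3, a glycerol channel (3.58), Gsdmc2, a gasdermin of epithelia (3.45), Lgals2, a galectin (3.37, and 3.95 without line 8028), and Krt20, a keratin of surface cells (3.24). The largest falls included Col14a1, a matrix collagen (1131 counts in vehicle and 17 after inhibition), Slc9a3, a sodium-proton exchanger (-5.32, and -6.34 without line 8028), Ppp2r2b (-4.69), the aminopeptidase gene Anpep (-4.58), Angptl2 (-4.37) and the lectin gene Itln1 (-4.11). Slc9a3 differed between lines in level but not in direction, from 12, 20.1 and 74.5 CPM to 0.247, 0.128 and 2.41. By absolute message, Sprr2a2 gained most, from 17858, 21663 and 17507 to 28386, 32913 and 22967 CPM, though its reads can be shared with near-identical Sprr2a copies. Gsto1 and Gsta4 completed the 5 largest gains. Gpx2, an epithelial glutathione peroxidase, lost most (1850, 1870 and 2068 to 510, 495 and 886 CPM), followed by Gkn3, Spp1, Aqp5 and the chaperone gene Hsp90ab1, whose call was lost without the block (adjusted p 0.104).

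A few genes crossed from or to near silence. In 11 called genes the vehicle libraries held 3 counts or fewer in total, and in 29 the inhibited libraries did. Scgb3a1, a secreted airway and gland protein, had 0 counts in vehicle and 107 after inhibition, with 1.07, 1.76 and 1.5 CPM in the 3 lines. That is 45.7-fold higher against a floor of 3 counts over the group, with a lower limit of 36.6-fold for counting error. Muc5b, another gel-forming mucin, had 3 counts before and 154 after, 65.8-fold more at equal depth (22.1 to 323 for counting error). Ntf3, a neurotrophin, and Myl9, a myosin light chain, had 41 and 43 counts in vehicle and 0 after inhibition. These are 10.7-fold and 11.2-fold lower against the same floor, with lower limits of 8.28-fold and 8.71-fold for counting error. Calls at this depth can rest on 1 library: all 30 counts of Gm6565 lay in inhibited line 8025, and its call was lost without the block (adjusted p 0.101) and with DESeq2 (0.786), and without line 8025 no count remained.

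Few genes differed in response between corpus and antral organoids by the test of the difference. That difference in log2 change, corpus minus antrum, was tested in the same fit and passed for 7 of 16152 genes (0.0433%), while 1154 genes had an unadjusted p below 0.05. All 7 changed less, or fell more, in corpus. Akr1c14, an aldo-keto reductase of steroid and aldehyde metabolism, rose from 10.0, 14 and 10.3 to 28.7, 28.4 and 30.1 CPM in corpus and from 2.01, 2.93 and 2.88 to 28, 36.4 and 32.8 in antrum. The regions thus met at the same inhibited level from different vehicle levels, and the difference was -2.27 ± 0.175 (adjusted p 0.0019). Gstm3, a glutathione transferase, behaved alike (2.39 in corpus and 3.62 in antrum, adjusted p of the difference 0.0019), and Gstm1, Gstm2 and Pdcd4 also started lower in antrum. Atp2a3, a calcium pump named after its values were seen, had overlapping vehicle levels (55.6, 59.2 and 60.5 CPM in corpus and 53.1, 60.7 and 65.3 in antrum). It parted after inhibition, at 179, 195 and 195 in corpus and 244, 277 and 314 in antrum. Adh1, an alcohol dehydrogenase that oxidizes retinol, fell in corpus from 75.9, 64.9 and 41.8 to 25.3, 26.8 and 21.8 CPM and did not pass in antrum, where it went from 42.8, 30.3 and 59.9 to 47.9, 33.6 and 55.2. Its difference was -1.33 ± 0.158 (adjusted p 0.0454), a call lost without line 8026 (0.26) as well as without the block. Without the block Akr1c14 was the 1 gene that passed, and without corpus line 8028, whose regional markers lean to antrum, 176 genes passed (1.08%). Serum differed between the growth media of the regions, and antral vehicle lines 8025 and 8028 held 17.2% and 6.87% rRNA-like counts. Region and serum cannot be told apart, and the part of the rRNA-like counts was not tested.

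**Figure D5:**
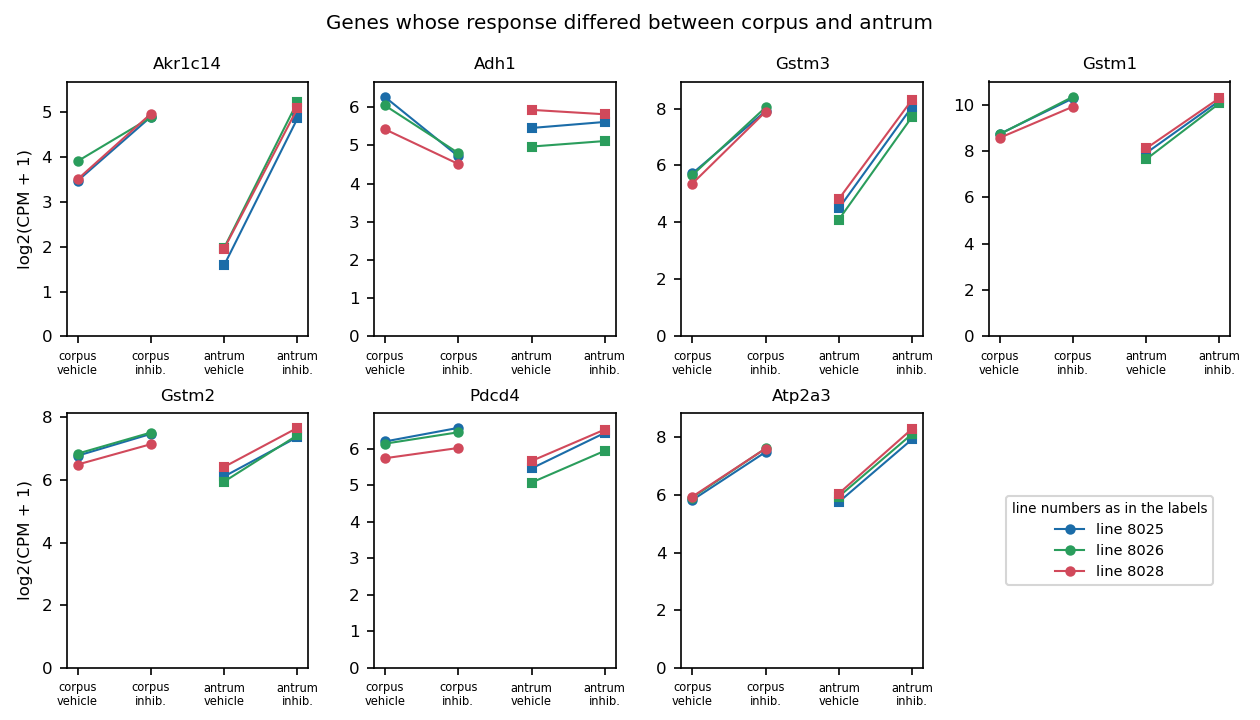
Expression of the 7 genes whose response differed between regions, as log2(CPM + 1) on the vertical axis, in vehicle and inhibited libraries of corpus (circles) and antrum (squares), with lines joining the libraries of 1 organoid line. In Akr1c14 and Gstm3 the antral libraries start lower and reach the corpus level, and in Adh1 corpus falls while antrum moves little.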

How the data were processed

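RNA of 12 organoid libraries was prepared with poly(A) selection, per the labels' protocols. One table gives an expected count for every gene and library, as the authors obtained it with RSEM 1.3.3 after STAR 2.7.8a alignment to GRCm38 and cutadapt 2.3 trimming, per the submitters' processing notes. Strandedness is not given in the sources used here. Reads of a gene and an antisense partner therefore cannot be told apart. Of 55426 entries, 5 transgene entries (2 counts in all) were left out. Expected counts were rounded to whole numbers, genes were filtered with edgeR's filterByExpr, and 16152 genes were fitted over all 12 libraries with edgeR 4.0.16 in R 4.3.3 (TMM scaling, robust quasi-likelihood, 4 residual degrees of freedom), with treatment group and with line nested in region as a block. Adjusted p-values are Benjamini-Hochberg values over all genes tested in a fit, and a gene was called below 0.05. CPM values were computed from the TMM-scaled library totals. Changes within a line are differences of log2(CPM + 1).

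The line numbers in the sample titles give the pairing. Deviations from the group means correlated within corpus lines with r of 0.536, 0.580 and 0.724. The labels call the lines independent but do not state from how many mice they came. With the line as a block, p-values measure how the response varied between these lines, not how the lines differed in level. The estimate of this spread is shared with the antral lines. Alternatives were no block, RLE, upper quartile and total-count scaling, other filters, DESeq2 1.42.0, limma-voom 3.58.1, the 6 corpus libraries alone, and leaving out each corpus line. Positions are from GENCODE release 21 of the mouse annotation (GRCm38), and promoters from RefSeq on GRCm38.p6. Gene lists hold textbook members.

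Named genes were the 12 largest rises and falls at 5 CPM or more, up to 3 members per list, the 6 largest regional differences, 16 preset genes, the 5 largest gains and losses in CPM, the 6 widest ranges between lines at 20 CPM or more, and the 10 largest changes among genes at 3 counts or fewer in a group. Genes named beyond this rule were chosen after their values were seen. The comparison, its members and the lists were chosen with earlier results of these data known. Results for some genes are not reported here.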

Additional observations from a re-analysis of the deposited data

Results flagged for a closer look

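The change after inhibition differed between corpus and antral organoids by a test of the difference itself (edgeR, adjusted p below 0.05) for 7 genes. The corpus minus antrum log2 differences were -2.27 for Akr1c14, -1.33 for Adh1, -1.23 for Gstm3, -0.78 for Gstm1, -0.66 for Gstm2, -0.59 for Pdcd4 and -0.52 for Atp2a3. Gstm1, Gstm2 and Gstm3 are related glutathione transferases whose reads can be shared, so they are not separate results. The serum of the growth medium differed between the regions and cannot be told apart from region.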

How the results depend on the processing

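The count of 7022 changed genes in corpus stayed within 1.5 times of its value under every scaling, filter and tool run. Without the replicate block the count was 4985, and the genes called lower numbered 2487 in place of 3821. With total counts 1779 genes were called higher in place of 3201. Leaving out both corpus libraries of 1 line gave 4272 to 7351 changed genes, 2115 to 3509 higher and 2157 to 3842 lower, the lowest each time without line 8026. The regional difference was the least stable result: its 7 genes became 1 without the replicate block, 4 with RLE scaling, 3 with upper quartile scaling, 82 with total counts, 79 with no low-count filter, 57 with DESeq2, 4 with limma-voom and 3 to 176 when a line was left out. The cause was not tested. The log2 change of Aqp4 (-0.50) ranged from -0.998 to 0.0311 when a line was left out, turning above 0 without line 8028. That of Gm6565 ranged from 0 without line 8025, which held all its counts, to 7.11. Among single named genes the most calls were lost without line 8026 (55), without the replicate block (54) and without line 8025 (35). Genes near 3 counts per library, or 0.0889 to 0.128 CPM, are limited by depth.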
